A study of Mus musculus with 12 samples.

Results

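The mitochondrial carrier family (Slc25) was followed in 3T3-L1 cells, mouse fibroblasts that hormones can turn into fat cells. Its members were taken by gene symbol: every numbered Slc25a gene, the uncoupling proteins Ucp1 to Ucp3 and the outer membrane relatives Mtch1 and Mtch2. This gave 38 of the 11035 genes in the count table, of which 36 had enough counts to be tested. There were 12 libraries, 3 for each of 4 groups. Cells of the preadipocyte group were never induced and were kept in medium with 10% calf serum. The regular_diff group was induced 2 days after confluence. It received insulin at 1 µg/mL, dexamethasone at 1 µM, rosiglitazone at 2 µM and the phosphodiesterase inhibitor IBMX at 0.5 mM for 2 days, then insulin alone at the same dose for 2 days, in medium with 10% fetal bovine serum. The WT_CM and KO_CM groups went through the same steps in media mixed 1:1 with filtered medium conditioned by WEA breast cancer cells. The WEA cells carried intact p53 for WT_CM and a p53 knockout for KO_CM; the 3T3-L1 cells are labelled wild type throughout. The study asked how medium from p53-deficient cancer cells acts on fat cell differentiation. A 1:1 mix with unconditioned medium was not among the groups, so dilution of the inducers and factors from the cancer cells cannot be told apart against regular_diff. The labels do not say that replicates are separate cultures, so p-values cover only the sample-to-sample spread, part of which may be technical. The preadipocyte and regular_diff libraries are numbered 4 to 6 and the conditioned medium libraries 1 to 3, so any difference between those sets of libraries cannot be told apart from the media either.

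Mitochondrial carriers are small proteins that cross the inner mitochondrial membrane and exchange substrates between cytosol and matrix. They carry citrate, malate, phosphate, ADP and ATP, amino acids, acylcarnitines and cofactors. In fat cells the citrate carrier supplies the carbon that cytosolic enzymes turn into fatty acids, and uncoupling protein 1, a brown fat protein not analysed here, lets protons return to the matrix and releases heat. Carrier proteins reach the inner membrane through the TOM and TIM22 import machinery.

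MARS-seq counts molecules at transcript 3′ ends by molecular barcodes (UMIs), so levels are given as CPM, a gene's count scaled to a common library total, and compared within a gene, never between genes. Library totals ran from 669007 to 2025317 counts, and the 3 KO_CM libraries held 748693, 1132099 and 669007. A pair of libraries stood apart from the others of their group. Preadipocyte replicate 5 held 129 counts of Adipoq, the adipocyte hormone adiponectin, against 13 and 11 in the other two. KO_CM replicate 1 held 11 counts of Ly6a, a surface marker of fat precursors, against 380 and 202. Other precursor markers did not drop so far in that library. Thy1 stood at 317 CPM against 269 and 314, Dlk1 at 28.8 against 31.6 and 26.4, and Pdgfra at 249 against 388 and 390. All 7 white adipocyte markers were in the table, and their summed level ran from 61.6 to 537 CPM in preadipocyte, 34690 to 38540 in regular_diff, 31510 to 32310 in WT_CM and 7694 to 10160 in KO_CM. The 7 preadipocyte and fibroblast markers summed to 883 to 1246, 323 to 353, 578 to 614 and 862 to 1383 CPM in the same order. They did not move together in WT_CM against regular_diff: of 6 tested, 1 was called higher and 1 lower. Ly6a ran from 253.5 to 278.5 CPM in WT_CM and from 66.2 to 76.0 in regular_diff. Dlk1 ran from 2.56 to 6.34 CPM in WT_CM and from 7.52 to 14.6 in regular_diff. The white adipocyte markers also differed there, though 0 of 6 tested were called. Fabp4 was higher in every WT_CM library (15940 to 16700 CPM) than in regular_diff (13590 to 15370). Adipoq, Cfd, Cidec and Retn were lower in every WT_CM library, with Cidec at 2380 to 2530 CPM against 4009 to 4356. Plin1 and Lep overlapped. Among 8 epithelial markers 5 were in the table, at 7.46 to 17.5, 36.1 to 40.7, 39.9 to 63.5 and 18.1 to 49.8 CPM, and Epcam, Cdh1 and Krt5 were not among them. Among 6 leukocyte markers 3 were in the table, at 18.5 to 19.9, 21.9 to 28.6, 43.8 to 47.5 and 28.0 to 35.2 CPM, and Ptprc, Adgre1 and Csf1r were not among them.

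Family members together took 0.607% ± 0.00165 of all counts in preadipocyte cells, 0.900% ± 0.0267 in regular_diff cells, 0.794% ± 0.00761 with WT_CM and 0.624% ± 0.00429 with KO_CM (SD, n = 3 each). This sum leans on the members with most counts. Slc25a5, whose counts are uncertain (below), alone held 2901, 11280, 10936 and 2460 counts over these groups in the same order. By group mean, 21 of the 38 members were highest in regular_diff, 8 in WT_CM, 8 in preadipocyte and 1 in KO_CM. The lowest mean fell in preadipocyte for 20 members, in KO_CM for 11, in regular_diff for 5 and in WT_CM for 2.

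**Figure D1:**
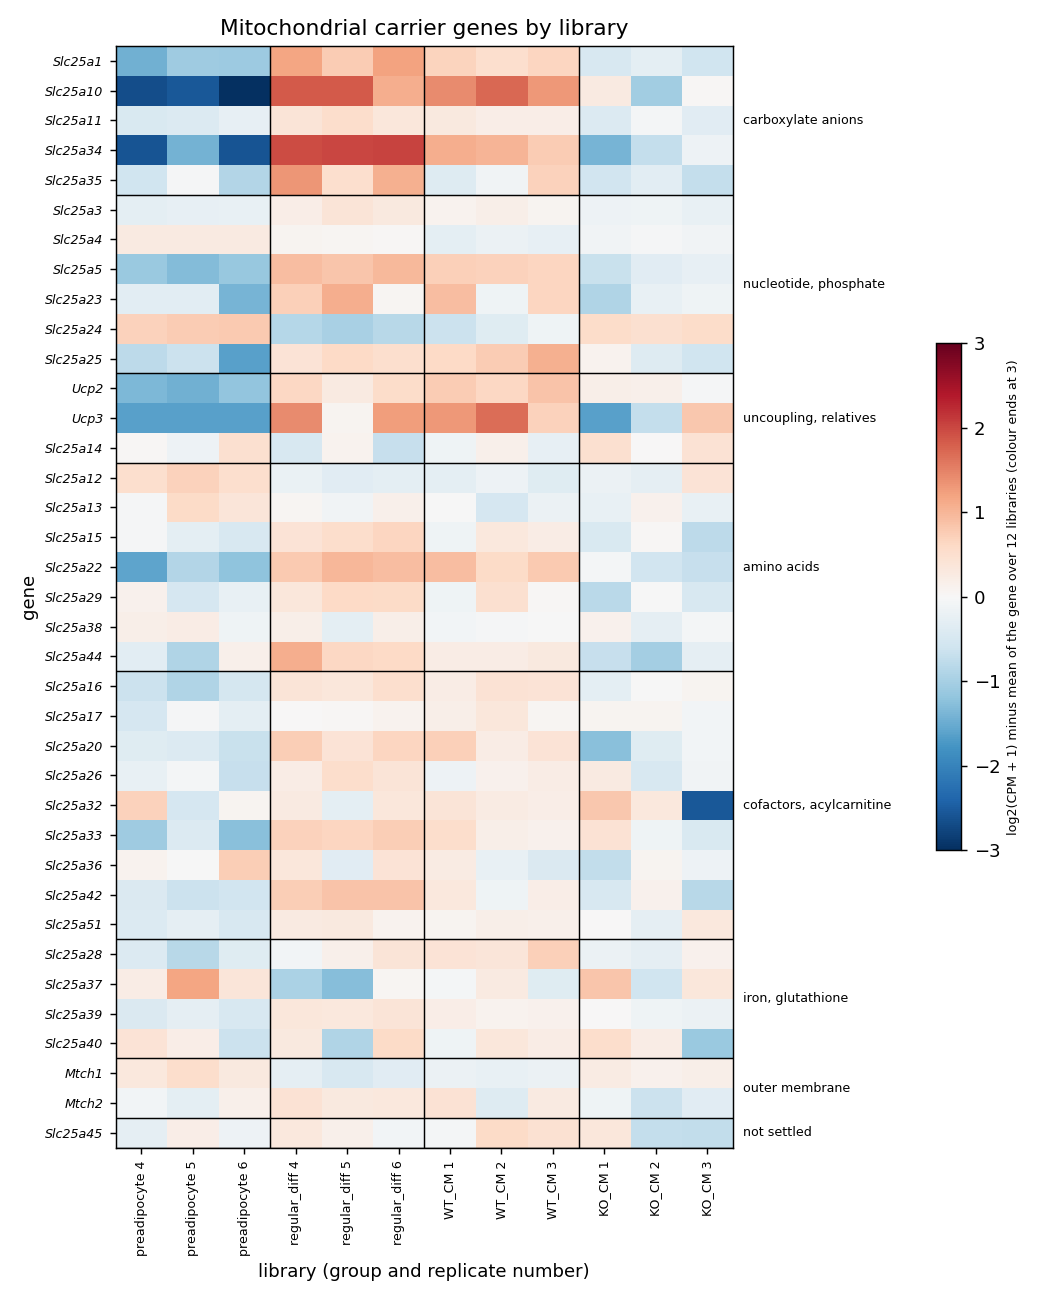
Level of 37 members (rows, grouped by role) in each of the 12 libraries (columns), as log2(CPM + 1) minus the gene's mean over all libraries, with red above and blue below that mean. Most rows are red in the regular_diff and WT_CM columns and blue in the preadipocyte columns, and Slc25a24, Slc25a12 and Mtch1 show the opposite order between preadipocyte and regular_diff.

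Most of the family rose under regular differentiation. The citrate carrier Slc25a1 rose 4.82-fold, the ADP/ATP carrier Slc25a5 4.26-fold and the glutamate carrier Slc25a22 4.41-fold. Slc25a24, a calcium-regulated ATP-Mg/phosphate carrier, was 3.16-fold lower. With edgeR's quasi-likelihood test and Benjamini-Hochberg adjustment over all 9519 genes tested, 28 of 36 members were called at an adjusted p under 0.05, where 51.2% of all genes tested were called. Of these 24 were higher in regular_diff, against a background of 24.8%, and 4 were lower, against 26.4%. The median log2 fold change was 0.72 over the members and -0.06 over all genes tested. Fitted changes of at least 2-fold were found for 16 called members, among them Ucp3, Slc25a10 and Slc25a34, whose fitted values are not sizes. The share of all genes at that cutoff was not counted, so the 16 cannot be set against a background. In bulk RNA, fewer cells of a type and less RNA per cell cannot be told apart. The white adipocyte markers moved with these calls, and their part in them was not tested. Without preadipocyte replicate 5 and KO_CM replicate 1 together, 24 members were higher and 4 lower. Of the 28 calls, 24 held under every alternative that tested them, 21 higher and 3 lower.

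**Figure D2:**
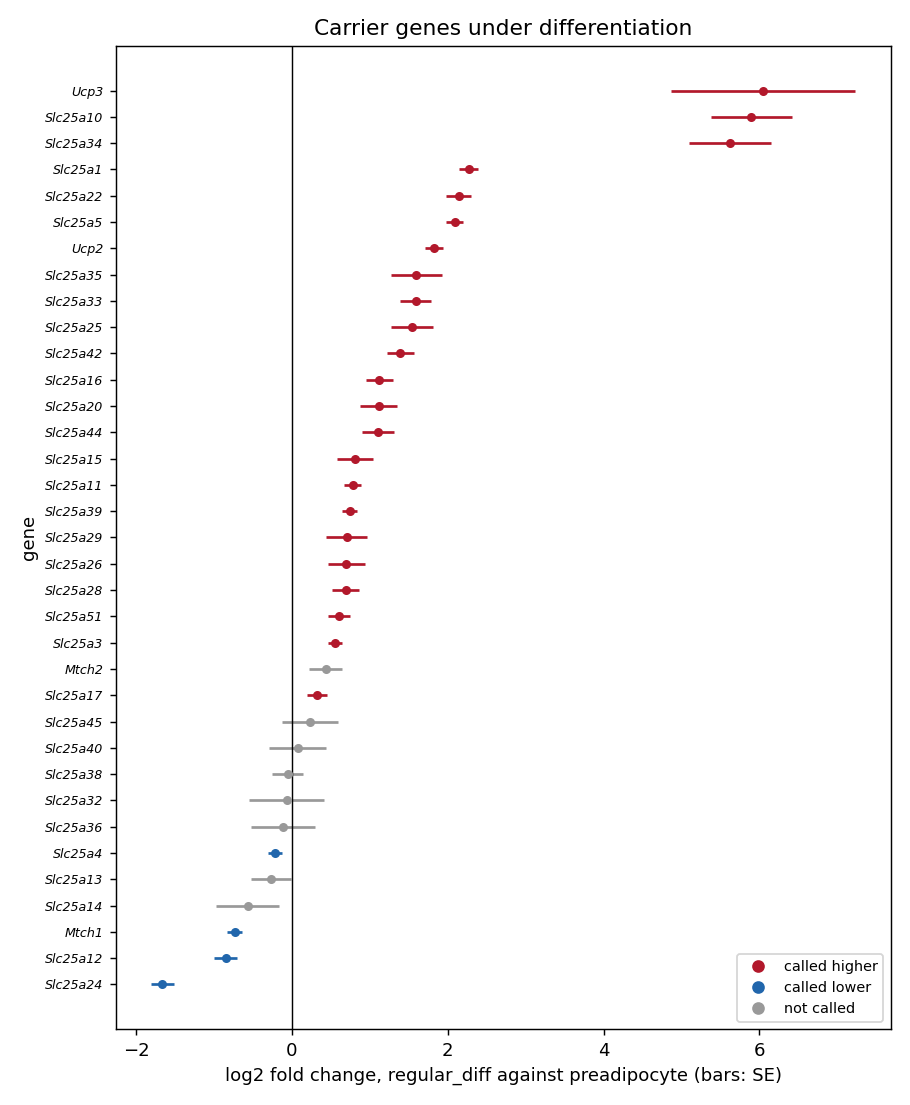
Log2 fold change of regular_diff against preadipocyte (x axis) for 35 members tested (y axis), with standard errors as bars, in red where called higher, blue where called lower and grey where not called. Of these, 23 lie on the right in red and 4 on the left in blue; the 3 points farthest right, Ucp3, Slc25a10 and Slc25a34, rest on 0, 2 and 2 preadipocyte counts, so their fitted values are not sizes.

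With medium from WEA cells that carry intact p53, 7 members were called. Those that fell against regular_diff included Slc25a1, Slc25a4, Slc25a34, Slc25a35 and the coenzyme A carrier Slc25a42, and Slc25a24 rose. These 7 of 36 calls compare with 9.91% of all genes called, and the 1 higher and 6 lower calls with 5.73% and 4.18%. The median log2 fold change was -0.16 over the members and -0.01 over all genes. Only the call of Slc25a42 held under every alternative that tested it. The count of calls was 1 without regular_diff replicate 6, 2 without regular_diff replicate 4, and 3 without WT_CM replicate 2 or 3. It was 11, with 9 lower, when preadipocyte replicate 5 and KO_CM replicate 1 were left out together. Calls over all genes moved in the same direction, from 943 in the main fit. They numbered 621 without regular_diff replicate 6, 595 without replicate 4, and 679 and 634 without WT_CM replicates 2 and 3. With the pair left out together they numbered 1445. White adipocyte markers moved in both directions between these groups, and their part in the calls was not tested.

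With medium from p53 knockout cells, 20 members were lower than in regular_diff. Among them were Slc25a34, Slc25a10, Slc25a35, Slc25a1 and Slc25a44, while Slc25a24 and Mtch1 rose. Of all genes 34.6% were called in this comparison, 17.2% higher and 17.3% lower, against 22 of the 36 members. The median log2 fold change was -0.51 over the members and close to 0 over all genes. Fitted changes of at least 2-fold were found for 11 called members, and the share of all genes at that cutoff was not counted. Of the 22 calls, 15 held under every alternative that tested them, 2 higher and 13 lower. Without preadipocyte replicate 5 and KO_CM replicate 1 together, 18 members were lower and 2 higher. The summed white adipocyte markers were lower in every KO_CM library than in any regular_diff or WT_CM library, and their part in these calls was not tested.

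KO_CM was also set against WT_CM, groups that the labels set apart by p53 in the cancer cells. There 13 members were lower in KO_CM, among them Slc25a34, Slc25a10, Slc25a22, Slc25a25, Slc25a5 and Slc25a1, and Slc25a24 and Mtch1 were higher. These 15 of 36 calls compare with 27.6% of all genes called, 13.6% higher and 13.9% lower. The median log2 fold change was -0.45 over the members and -0.01 over all genes. Of the 15 calls, 10 held under every alternative that tested them, 2 higher and 8 lower. With the libraries that stood apart left out (preadipocyte replicate 5, KO_CM replicate 1) there were 15 lower and 2 higher.

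Set against cells that were never induced, KO_CM cells held higher levels of 10 members and lower levels of 2. The higher ones included Slc25a1, Slc25a5, Slc25a10 and Ucp2, whose calls held under every alternative that tested them. Of the 12 calls, 5 held in this way, all of them higher, and 7 were lost in some alternative. Of all genes 20.5% were called, 12.1% higher and 8.40% lower, so the 2 lower of 36 members are no more than the background. The median log2 fold change was 0.14 over the members and -0.01 over all genes. A fit of only these 6 libraries called 6 members, all higher, of 29 tested. It called 1356 of all genes, against 1956 in the main fit. White adipocyte markers moved with these calls: 6 of the 6 tested were higher in KO_CM than in preadipocyte, with a median log2 fold change of 5.64, and their part in the calls was not tested. The 5 comparisons share libraries and are not independent of one another: regular_diff and KO_CM each serve in 3 of them.

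**Figure D3:**
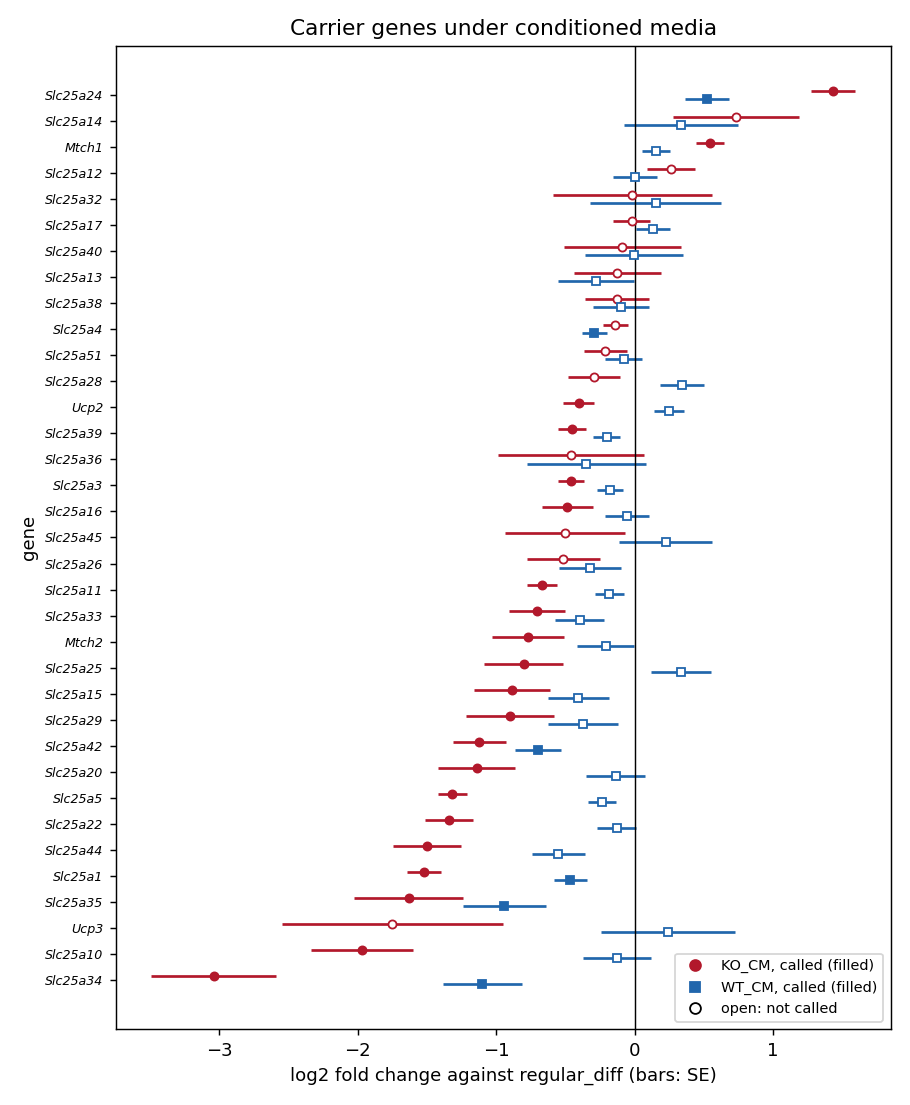
Log2 fold change against regular_diff (x axis, bars SE) of 35 members tested (y axis) in KO_CM (circles) and WT_CM (squares), filled where called and open where not called. In KO_CM 19 filled circles lie left of 0 and 2 right of it, and in WT_CM 5 filled squares lie left and 1 right; both sets use the same regular_diff libraries.

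The carriers of di- and tricarboxylate anions move citrate, malate, succinate and oxoglutarate. They were listed with their relatives Slc25a34 and Slc25a35, whose substrates are less well settled. Genes of this list rose together under differentiation: 5 of the 5 tested were called higher, where 24.8% of all genes were. In KO_CM 5 were lower than in regular_diff and 4 lower than in WT_CM, and in WT_CM 3 were lower than in regular_diff. Of all genes 17.3%, 13.9% and 4.18% were lower in the same order. Slc25a1 (ENSMUSG00000003528.15, mm10 chr16:17925223-17928219, minus strand) exports citrate in exchange for malate. It stood at 189.7, 244 and 240.0 CPM in preadipocyte, 1171, 879.5 and 1193 CPM in regular_diff, 814, 733 and 803 CPM in WT_CM and 368, 417 and 341 CPM in KO_CM. The order ran from regular_diff down through WT_CM and KO_CM to preadipocyte, and no pair of groups overlapped. It rose by 2.27 ± 0.13 (adjusted p = 1.16e-14) on the log2 scale (± SE) under differentiation. It fell by 1.52 ± 0.12 (adjusted p = 1.1e-10) in KO_CM against regular_diff and by 1.06 ± 0.12 (adjusted p = 1.42e-07) against WT_CM. KO_CM remained above preadipocyte by 0.75 ± 0.13 (adjusted p = 4.84e-05). The smaller fall in WT_CM, 0.47 ± 0.12 (adjusted p = 0.00962), lost its call without regular_diff replicate 4 or 6, or WT_CM replicate 2 (adjusted p 0.0651 to 0.0871).

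Slc25a10 (ENSMUSG00000025792.9, mm10 chr11:120491840-120499187, plus strand), the dicarboxylate carrier, exchanges malate or succinate for phosphate. It stood at 0.500, 0.622 and 0 CPM in preadipocyte, 32.8, 33.1 and 19.2 CPM in regular_diff, 24.6, 30.3 and 22.5 CPM in WT_CM and 10.5, 3.61 and 8.79 CPM in KO_CM. Preadipocyte held 2 counts in all, so the change is given as a ratio of counts with its 95% exact interval, which covers counting error only: regular_diff was 71.8 times preadipocyte (19.5 to 599), WT_CM 66.1 times (18 to 552) and KO_CM 18.2 times (4.35 to 161). The adjusted p was 1.57e-10 for regular_diff and 0.000357 for KO_CM. The 3 KO_CM libraries, with 8, 4 and 6 counts, lay below every regular_diff and WT_CM library and above every preadipocyte library. Slc25a10 fell by 1.97 ± 0.37 (adjusted p = 9.02e-05) in KO_CM against regular_diff and by 1.84 ± 0.37 (adjusted p = 0.0003) against WT_CM. WT_CM and regular_diff overlapped, with a log2 fold change of -0.13 ± 0.25 (adjusted p = 0.856).

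Slc25a34 and Slc25a35 are close relatives of the dicarboxylate carriers, with substrates that are less well settled. Slc25a34 (ENSMUSG00000040740.7, mm10 chr4:141618824-141623821, minus strand) stood at 0, 1.24 and 0 CPM in preadipocyte, 22.5, 23.3 and 23.8 CPM in regular_diff, 11.8, 11.3 and 9.22 CPM in WT_CM and 1.31, 2.71 and 4.40 CPM in KO_CM. It too rested on 2 preadipocyte counts, both in replicate 5, the library that also held adipocyte markers, so without it the group was at 0. Regular_diff was 59.8 times preadipocyte (16.2 to 500), WT_CM 27.8 times (7.36 to 235) and KO_CM 7.06 times (1.34 to 69.7). The adjusted p was 4.92e-10 for regular_diff and 0.0479 for KO_CM. Slc25a34 fell by 1.10 ± 0.29 (adjusted p = 0.011) in WT_CM and by 3.04 ± 0.45 (adjusted p = 3.78e-06) in KO_CM against regular_diff, and by 1.94 ± 0.51 (adjusted p = 0.00443) in KO_CM against WT_CM. The call in WT_CM was lost without regular_diff replicate 6, or WT_CM replicate 3, and also with all libraries thinned to the smallest total (adjusted p 0.056 to 0.115). The call of KO_CM against WT_CM was lost with all libraries thinned to the smallest total (adjusted p = 0.148). The call of KO_CM against preadipocyte was lost without preadipocyte replicate 4 or 6, or any 1 regular_diff library, or any 1 WT_CM library, or KO_CM replicate 2 or 3, and also under 4 other alternatives (adjusted p 0.0518 to 0.162).

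Slc25a35 stood at 6.51, 9.95 and 5.19 CPM in preadipocyte, 27.3, 15.1 and 22.6 CPM in regular_diff, 7.68, 9.50 and 17.3 CPM in WT_CM and 6.55, 8.12 and 5.86 CPM in KO_CM. The regular_diff libraries were the highest on average, and the groups that overlapped were preadipocyte with WT_CM, preadipocyte with KO_CM, regular_diff with WT_CM and WT_CM with KO_CM. It rose by 1.6 ± 0.33 (adjusted p = 0.000179) under differentiation and fell by 1.63 ± 0.39 (adjusted p = 0.00161) in KO_CM. The fall in WT_CM, 0.94 ± 0.30 (adjusted p = 0.0451), was lost without preadipocyte replicate 4, or regular_diff replicate 4 or 6, or WT_CM replicate 1 or 2, and also under 3 other alternatives (adjusted p 0.0506 to 0.603). Slc25a11, the oxoglutarate/malate carrier of the malate-aspartate shuttle, stood at 182, 189 and 212 CPM in preadipocyte, 326, 359 and 316 CPM in regular_diff, 306, 287 and 289 CPM in WT_CM and 187, 239 and 199 CPM in KO_CM. KO_CM overlapped preadipocyte and lay below regular_diff and WT_CM. Slc25a11 rose by 0.78 ± 0.11 (adjusted p = 5.69e-07) under differentiation and fell by 0.67 ± 0.11 (adjusted p = 1.94e-05) in KO_CM against regular_diff and by 0.49 ± 0.11 (adjusted p = 0.00126) against WT_CM.

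**Figure D4:**
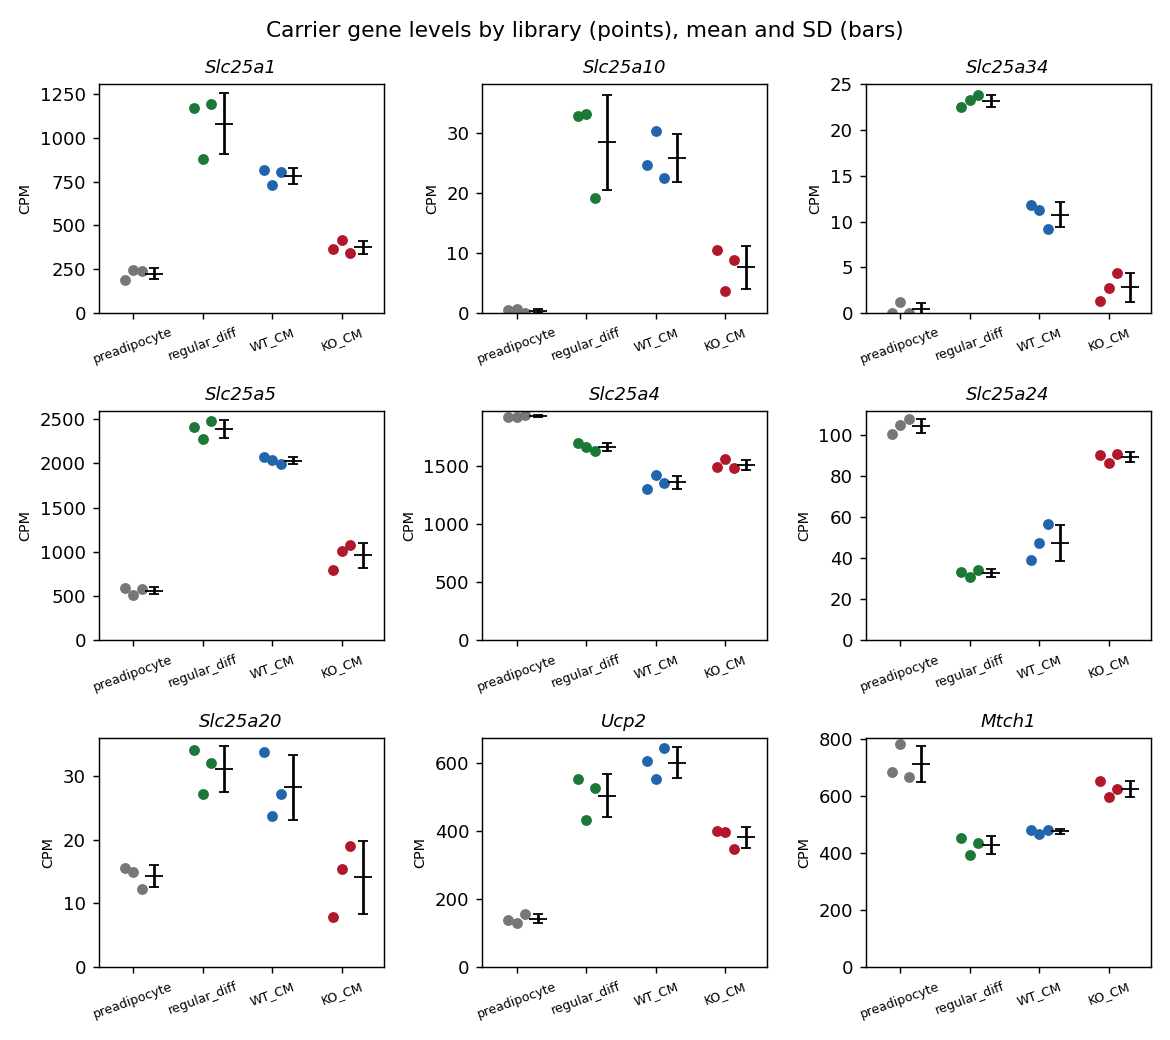
Level in CPM (y axes, each from 0) of 9 members in the 3 libraries of each group (points), with the mean and SD beside them (bars). Slc25a1 and Slc25a5 stand in separate bands by group; for Slc25a34 the highest preadipocyte library held 2 counts and the lowest KO_CM library 1, and Slc25a24 and Mtch1 are high in preadipocyte and KO_CM and low in regular_diff.

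Promoter sequences are shown for the citrate carrier and Slc25a34, which rose under differentiation and were lower in KO_CM than in regular_diff, and for the ADP/ATP carriers Slc25a4 and Slc25a5, which moved differently from each other. They were taken from RefSeq on GRCm38.p6 and run 5′ to 3′ on the gene's own strand from 250 bases before the start to 50 after it. Capitals mark any of 5 motifs on either strand: AGGTCA (a nuclear receptor site), TCAAGGTCA (the site of oestrogen-related receptors, which contains the former), CACGTG (E-box), GCGCATGCG (NRF1 core) and CCAAT.
Slc25a1 (chr16:17928170-17928469, minus strand): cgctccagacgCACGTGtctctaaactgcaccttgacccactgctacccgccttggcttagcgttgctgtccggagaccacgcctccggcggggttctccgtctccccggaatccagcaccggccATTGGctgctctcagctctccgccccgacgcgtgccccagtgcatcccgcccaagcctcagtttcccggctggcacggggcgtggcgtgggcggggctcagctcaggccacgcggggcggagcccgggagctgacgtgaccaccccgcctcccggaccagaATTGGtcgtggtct
Slc25a34 (chr4:141623785-141624084, minus strand): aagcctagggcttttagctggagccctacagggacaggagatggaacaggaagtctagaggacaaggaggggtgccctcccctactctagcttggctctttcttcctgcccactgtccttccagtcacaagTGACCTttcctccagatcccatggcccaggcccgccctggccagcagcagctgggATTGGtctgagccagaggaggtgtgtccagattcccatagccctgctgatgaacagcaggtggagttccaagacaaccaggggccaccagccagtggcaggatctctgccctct
Slc25a4 (chr8:46211013-46211312, minus strand): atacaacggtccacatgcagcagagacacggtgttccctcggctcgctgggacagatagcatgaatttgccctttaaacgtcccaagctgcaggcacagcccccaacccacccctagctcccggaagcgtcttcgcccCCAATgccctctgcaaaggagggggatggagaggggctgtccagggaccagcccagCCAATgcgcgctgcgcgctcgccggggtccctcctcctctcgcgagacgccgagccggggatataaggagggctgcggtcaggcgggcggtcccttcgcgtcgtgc
Slc25a5 (chrX:36795347-36795646, plus strand): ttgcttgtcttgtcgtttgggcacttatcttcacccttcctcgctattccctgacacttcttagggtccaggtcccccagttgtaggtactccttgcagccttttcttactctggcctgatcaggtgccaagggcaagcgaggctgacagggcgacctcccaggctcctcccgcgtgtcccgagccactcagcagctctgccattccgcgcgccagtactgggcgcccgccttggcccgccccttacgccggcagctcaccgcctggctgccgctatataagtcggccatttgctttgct

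Slc25a1 holds CACGTG and 2 CCAAT matches, Slc25a34 holds AGGTCA and CCAAT, Slc25a4 holds 2 CCAAT matches, and the Slc25a5 window holds none of these letters. A RefSeq promoter was found for 31 of the 38 members, with 40 promoters in all. Shares are by gene, and a gene counted if any of its promoters held the letters. AGGTCA was in 16.1% of these 31 members and in 14.5% of the 8795 genes of the count table with a promoter. CACGTG was in 19.4% and 12.1%, and GCGCATGCG in 3.23% and 4.35%. TCAAGGTCA was in 0 of 31 and in 0.284% of the table's genes. CCAAT was in 48.4% of the members, in 57.9% of the 19 members with a promoter that rose under differentiation, and in 43.3% of the table's genes. These matches are a description of the letters only.

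Carriers of adenine nucleotides and phosphate feed ATP synthase and return its product to the cytosol. All 5 tested were called under differentiation, 3 higher and 2 lower, where 24.8% of all genes were higher and 26.4% lower. The lower call of Slc25a4 was lost in 11 of its 22 alternatives. Slc25a3 imports the phosphate. It stood at 880.3, 909.7 and 925 CPM in preadipocyte, 1247, 1417 and 1313 CPM in regular_diff, 1158, 1215 and 1139 CPM in WT_CM and 968, 992 and 930.4 CPM in KO_CM. Every regular_diff library was above every WT_CM library, those were above every KO_CM library, and preadipocyte was lowest. It rose by 0.55 ± 0.09 (adjusted p = 1.36e-05) under differentiation and fell by 0.46 ± 0.09 (adjusted p = 0.000276) in KO_CM against regular_diff. The fall against WT_CM, 0.28 ± 0.09 (adjusted p = 0.025), was lost without regular_diff replicate 6, or any 1 WT_CM library, or KO_CM replicate 2 or 3, and also with library size alone as the scaling and with all libraries thinned to the smallest total (adjusted p 0.0521 to 0.129).

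The ADP/ATP carriers are Slc25a4 (ENSMUSG00000031633.4, mm10 chr8:46206797-46211284, minus strand), known as the heart and muscle form, and its relative Slc25a5 (ENSMUSG00000016319.3, mm10 chrX:36795651-36798807, plus strand). Slc25a5 stood at 589, 515 and 580.5 CPM in preadipocyte, 2415, 2277 and 2484 CPM in regular_diff, 2068, 2038 and 1994 CPM in WT_CM and 797, 1009 and 1075 CPM in KO_CM. Groups were fully apart, with regular_diff highest and preadipocyte lowest. It rose by 2.09 ± 0.11 (adjusted p = 1.79e-15) under differentiation, fell by 1.32 ± 0.11 (adjusted p = 6.96e-11) in KO_CM against regular_diff and by 1.08 ± 0.11 (adjusted p = 5.7e-09) against WT_CM, and stayed above preadipocyte by 0.77 ± 0.11 (adjusted p = 2.24e-06). In WT_CM its log2 fold change against regular_diff was -0.23 ± 0.10 (adjusted p = 0.188). It was called lower there with only the 6 libraries compared, and without preadipocyte replicate 5 and KO_CM replicate 1 together (edgeR adjusted p 0.0172 to 0.0317). Counts of Slc25a5 are uncertain, because 45.5% of its 3′ stretches of 31 bases also occur in other genes, 10 in all, led by Gm5560.

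Slc25a4 stood at 1923, 1918 and 1940.0 CPM in preadipocyte, 1699, 1657 and 1626 CPM in regular_diff, 1301, 1417 and 1355 CPM in WT_CM and 1486, 1555 and 1483 CPM in KO_CM. Preadipocyte was the highest group, and no pair of groups overlapped. Its fall under differentiation was small, 0.21 ± 0.09 (adjusted p = 0.0452), and the call was lost without preadipocyte replicate 4 or 6, or any 1 regular_diff library, and also under 6 other alternatives (adjusted p 0.0519 to 0.122). Its fall in WT_CM, 0.29 ± 0.09 (adjusted p = 0.0345), was lost without any 1 regular_diff library, or any 1 WT_CM library, and also with no filter and with all libraries thinned to the smallest total (adjusted p 0.0528 to 0.141). KO_CM fell below preadipocyte by 0.35 ± 0.09 (adjusted p = 0.00448), a call that was lost with only the 6 libraries compared (adjusted p = 0.0612).

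Within each library the count of Slc25a5 was also divided by that of Slc25a4, which cancels library size and scaling. The quotient says nothing of which transcript is the more abundant, and only its change between groups is read. It was 0.306, 0.269 and 0.299 in preadipocyte, 1.42, 1.37 and 1.53 in regular_diff, 1.59, 1.44 and 1.47 in WT_CM and 0.536, 0.649 and 0.725 in KO_CM. The group means were 0.291 ± 0.0199, 1.44 ± 0.0782, 1.5 ± 0.0795 and 0.637 ± 0.0951 (SD, n = 3). Regular_diff and WT_CM overlapped, preadipocyte lay lowest, and KO_CM lay between, apart from all other groups.

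**Figure D5:**
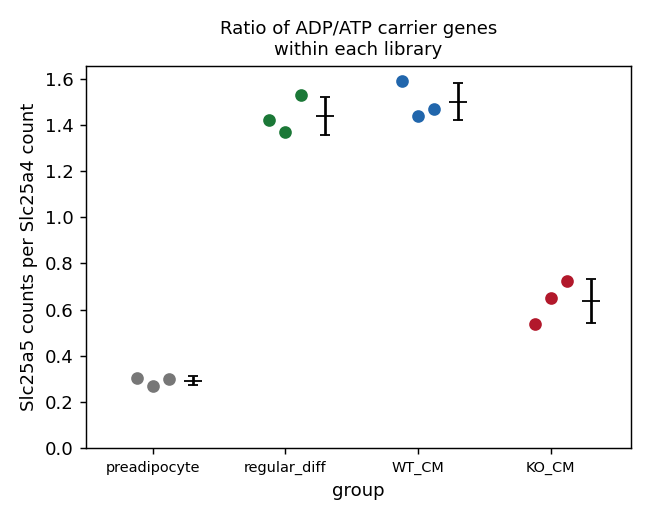
Counts of Slc25a5 per count of Slc25a4 (y axis, from 0) in each of the 12 libraries (points), with group mean and SD (bars). KO_CM libraries lie at 0.536 to 0.725, between preadipocyte at 0.269 to 0.306 and the regular_diff and WT_CM libraries at 1.37 to 1.59.

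Slc25a24, Slc25a25 and Slc25a23 exchange ATP-Mg for phosphate under control of calcium. Slc25a24 stood at 101, 105 and 108 CPM in preadipocyte, 33.4, 30.9 and 34.3 CPM in regular_diff, 38.9, 47.5 and 56.5 CPM in WT_CM and 90.4, 86.7 and 90.8 CPM in KO_CM. The preadipocyte libraries were the highest, KO_CM came next, then WT_CM, then regular_diff, with no overlap. Slc25a24 fell by 1.66 ± 0.15 (adjusted p = 1.67e-10) under differentiation and rose by 1.43 ± 0.16 (adjusted p = 3.62e-08) in KO_CM against regular_diff and by 0.91 ± 0.15 (adjusted p = 3.28e-05) against WT_CM. Its rise in WT_CM, 0.53 ± 0.16 (adjusted p = 0.0323), was lost without any 1 regular_diff library, or WT_CM replicate 2 or 3, and also with DESeq2 and with all libraries thinned to the smallest total (adjusted p 0.0561 to 0.226).

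Slc25a25 went the other way and stood at 10.0, 11.2 and 5.19 CPM in preadipocyte, 24.3, 27.8 and 26.1 CPM in regular_diff, 28.1, 31.5 and 39.2 CPM in WT_CM and 19.6, 13.5 and 11.7 CPM in KO_CM. WT_CM was highest, then regular_diff, then KO_CM, then preadipocyte, with no overlap. Slc25a25 rose by 1.54 ± 0.27 (adjusted p = 2.14e-05) under differentiation and fell by 1.14 ± 0.27 (adjusted p = 0.0022) in KO_CM against WT_CM. Its fall in KO_CM against regular_diff, 0.80 ± 0.29 (adjusted p = 0.03), was lost without regular_diff replicate 5 or 6, or KO_CM replicate 2 or 3, and also under 3 other alternatives (adjusted p 0.0506 to 0.216). Slc25a23 had 1 to 14 counts per library and did not pass the filter on low counts.

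Uncoupling proteins and their relatives are anion carriers named after the brown fat protein; the table held 3 of the 6 listed. Ucp2, which moves small metabolites such as aspartate out of the matrix, stood at 139, 131 and 158 CPM in preadipocyte, 553, 433 and 526 CPM in regular_diff, 605, 552 and 645 CPM in WT_CM and 401, 397 and 346 CPM in KO_CM. WT_CM and regular_diff overlapped, KO_CM lay below both and preadipocyte below KO_CM. Ucp2 rose by 1.82 ± 0.11 (adjusted p = 1.11e-13) under differentiation, fell by 0.65 ± 0.11 (adjusted p = 4.23e-05) in KO_CM against WT_CM, and stayed above preadipocyte by 1.42 ± 0.12 (adjusted p = 1.93e-10). The fall in KO_CM against regular_diff, 0.40 ± 0.11 (adjusted p = 0.00551), was lost without regular_diff replicate 4, or KO_CM replicate 3 (adjusted p 0.055 to 0.0688). WT_CM was called higher than regular_diff only with the 6 libraries compared, and without preadipocyte replicate 5 and KO_CM replicate 1 together (edgeR adjusted p 0.0215 to 0.0453). The 3′ end of Ucp2 is overlapped by Dnajb13 on the other strand, and the strand setting of the counting is not given in the sources used here.

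Ucp3, the muscle and brown fat relative, was at 0 counts in all 3 preadipocyte libraries. It had 12, 3 and 11 counts in regular_diff, 13, 15 and 7 in WT_CM and 0, 1 and 3 in KO_CM. Against a floor of 3 counts over the preadipocyte group, it was at least 9.51-fold higher in regular_diff (adjusted p = 0.00012) and at least 11.2-fold higher in WT_CM. KO_CM was not called against any group, with an adjusted p of 0.0955 against regular_diff, 0.0536 against WT_CM and 0.0738 against preadipocyte. At 4 counts over the group the depth limits that comparison. It was called against WT_CM without preadipocyte replicate 5, WT_CM replicate 3 or KO_CM replicate 3, against regular_diff without KO_CM replicate 3, and against preadipocyte without KO_CM replicate 1. Slc25a14, a brain relative, stood between 3.48 and 9.17 CPM in all libraries and was called in no comparison.

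Amino acid carriers divided. Of the 7 tested, 4 rose and 1 fell under differentiation, where 24.8% of all genes were higher and 26.4% lower. The 1 that fell is thus no more than the background. In KO_CM 4 fell against regular_diff and 2 against WT_CM, where 17.3% and 13.9% of all genes were lower. In WT_CM against regular_diff edgeR called 0 of the 7, as did DESeq2, with 1 at an unadjusted p under 0.05. Slc25a22 brings glutamate into the matrix. It stood at 25.0, 41.0 and 32.4 CPM in preadipocyte, 132, 154 and 146 CPM in regular_diff, 147, 114 and 132 CPM in WT_CM and 73.4, 50.5 and 46.9 CPM in KO_CM. Regular_diff and WT_CM overlapped above KO_CM, and KO_CM lay above preadipocyte. Slc25a22 rose by 2.14 ± 0.16 (adjusted p = 1.3e-11) under differentiation and fell by 1.34 ± 0.17 (adjusted p = 3.64e-07) in KO_CM against regular_diff and by 1.21 ± 0.17 (adjusted p = 3.11e-06) against WT_CM. KO_CM rose above preadipocyte by 0.80 ± 0.20 (adjusted p = 0.0039), a call that was lost with all libraries thinned to the smallest total (adjusted p = 0.0872).

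Slc25a44 imports branched-chain amino acids, which brown fat burns in mice. It stood at 34.5, 22.4 and 48.0 CPM in preadipocyte, 92.3, 67.0 and 65.0 CPM in regular_diff, 50.7, 50.5 and 52.4 CPM in WT_CM and 26.2, 20.8 and 35.2 CPM in KO_CM. Regular_diff was highest, WT_CM next, and KO_CM overlapped preadipocyte. Slc25a44 rose by 1.10 ± 0.20 (adjusted p = 7.28e-05) under differentiation and fell by 1.5 ± 0.25 (adjusted p = 2.69e-05) in KO_CM. Its fall in KO_CM against WT_CM, 0.95 ± 0.25 (adjusted p = 0.00628), was lost without KO_CM replicate 2 (adjusted p = 0.0888). WT_CM differed from regular_diff by -0.55 ± 0.19 (adjusted p = 0.0789), and the gene was called there without preadipocyte replicate 5 or 6.

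Aspartate/glutamate carriers serve the malate-aspartate shuttle. Slc25a12, the form of muscle and brain, stood at 90.1, 104 and 90.2 CPM in preadipocyte, 55.3, 50.4 and 51.7 CPM in regular_diff, 52.2, 57.0 and 49.0 CPM in WT_CM and 56.3, 52.4 and 85.0 CPM in KO_CM. Preadipocyte lay above every other library, and the 3 differentiated groups overlapped one another. Slc25a12 fell by 0.85 ± 0.15 (adjusted p = 2.39e-05) under differentiation and fell by 0.58 ± 0.16 (adjusted p = 0.0091) in KO_CM against preadipocyte. The latter call was lost without KO_CM replicate 2, and also with only the 6 libraries compared and without preadipocyte replicate 5 and KO_CM replicate 1 together (adjusted p 0.0583 to 0.116). Slc25a13, the liver form, stood at 13.5, 21.1 and 18.2 CPM in preadipocyte, 14.6, 12.8 and 15.7 CPM in regular_diff, 13.8, 9.50 and 12.1 CPM in WT_CM and 11.8, 15.3 and 11.7 CPM in KO_CM, all groups overlapped, and it was called in no comparison.

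Slc25a15, the ornithine carrier of the urea cycle, rose by 0.81 ± 0.23 (adjusted p = 0.00465) under differentiation. Its fall in KO_CM against regular_diff, 0.88 ± 0.27 (adjusted p = 0.0126), was lost without regular_diff replicate 6, or KO_CM replicate 3 (adjusted p 0.0559 to 0.0782). Slc25a29, a carrier of basic amino acids in humans, rose by 0.70 ± 0.26 (adjusted p = 0.0277), a call lost without preadipocyte replicate 5 or 6, or regular_diff replicate 5 or 6, and also under 4 other alternatives (adjusted p 0.0586 to 0.735). The fall of Slc25a29 in KO_CM, 0.90 ± 0.32 (adjusted p = 0.0274), was lost without regular_diff replicate 5 or 6, or KO_CM replicate 1 or 3, and also under 3 other alternatives (adjusted p 0.0634 to 0.313). Slc25a38, which brings glycine in for haem synthesis, stood between 21.1 and 30.5 CPM in all libraries and was called in no comparison.

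Carriers of cofactors, nucleotides and acylcarnitines form the largest set, with 10 tested. Under differentiation 8 rose, in KO_CM 5 fell against regular_diff and 2 against WT_CM, and in WT_CM 2 fell. Of all genes 24.8% were called higher under differentiation, and 17.3%, 13.9% and 4.18% were called lower in the other comparisons, so the 2 of 10 against WT_CM are close to the background. Slc25a42 brings coenzyme A into the matrix. It stood at 35.0, 30.5 and 31.8 CPM in preadipocyte, 80.8, 88.0 and 87.7 CPM in regular_diff, 59.4, 43.3 and 54.7 CPM in WT_CM and 34.1, 52.4 and 26.4 CPM in KO_CM. Regular_diff lay above all other libraries, WT_CM overlapped KO_CM, and KO_CM overlapped preadipocyte. Slc25a42 rose by 1.39 ± 0.17 (adjusted p = 1.21e-07) under differentiation and fell by 0.70 ± 0.16 (adjusted p = 0.00463) in WT_CM and by 1.12 ± 0.19 (adjusted p = 2.98e-05) in KO_CM. KO_CM against WT_CM gave -0.42 ± 0.20 (adjusted p = 0.121), and was called without KO_CM replicate 2. Slc25a16, also linked to coenzyme A, rose by 1.12 ± 0.17 (adjusted p = 4.04e-06). Its lower level in KO_CM, 0.49 ± 0.18 (adjusted p = 0.0418), was lost without preadipocyte replicate 4 or 6, or any 1 regular_diff library, or any 1 WT_CM library, or any 1 KO_CM library, and also under 5 other alternatives (adjusted p 0.0577 to 0.159). It was higher in KO_CM than in preadipocyte by 0.64 ± 0.20 (adjusted p = 0.024), a call lost without preadipocyte replicate 5, or KO_CM replicate 2 or 3, and also under 4 other alternatives (adjusted p 0.0521 to 0.0919).

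Slc25a20, the carnitine/acylcarnitine carrier, passes fatty acids into the matrix for oxidation. It stood at 15.5, 14.9 and 12.3 CPM in preadipocyte, 34.0, 27.1 and 31.9 CPM in regular_diff, 33.8, 23.8 and 27.1 CPM in WT_CM and 7.86, 15.3 and 19.1 CPM in KO_CM. Regular_diff and WT_CM overlapped above KO_CM and preadipocyte, which overlapped each other. Slc25a20 rose by 1.12 ± 0.24 (adjusted p = 0.000245) under differentiation and fell by 1.14 ± 0.28 (adjusted p = 0.00177) in KO_CM against regular_diff. Its fall against WT_CM, 1.00 ± 0.28 (adjusted p = 0.0071), was lost without WT_CM replicate 1, or KO_CM replicate 1 (adjusted p 0.0527 to 0.0586). Of its 3′ stretches 24.8% occur in other genes, 406 in all, so its counts are uncertain.

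Slc25a33 carries pyrimidine nucleotides. It stood at 24.5, 39.2 and 21.4 CPM in preadipocyte, 85.0, 82.0 and 87.7 CPM in regular_diff, 76.2, 59.4 and 57.6 CPM in WT_CM and 70.8, 47.9 and 38.1 CPM in KO_CM. Regular_diff lay above all other libraries, and KO_CM overlapped both WT_CM and preadipocyte. Slc25a33 rose by 1.59 ± 0.20 (adjusted p = 2.21e-07) under differentiation. Against regular_diff its fall in KO_CM, 0.70 ± 0.20 (adjusted p = 0.00837), was lost without KO_CM replicate 2 or 3 (adjusted p 0.0653 to 0.0672). KO_CM was above preadipocyte by 0.88 ± 0.23 (adjusted p = 0.00653), a call lost without KO_CM replicate 1 (adjusted p = 0.0679). WT_CM was called lower than regular_diff only with the 6 libraries compared, and without preadipocyte replicate 5 and KO_CM replicate 1 together (edgeR adjusted p 0.0299 to 0.0329).

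Slc25a51, the NAD carrier, rose by 0.61 ± 0.14 (adjusted p = 0.000795) under differentiation and was called in no other comparison; without KO_CM replicate 2 it was called against preadipocyte. Slc25a26, which carries S-adenosylmethionine, rose by 0.70 ± 0.23 (adjusted p = 0.014), a call lost without preadipocyte replicate 6, or regular_diff replicate 5, and also with library size alone as the scaling (adjusted p 0.0541 to 0.0839); its 3′ end is overlapped by Lrig1 on the other strand. Slc25a17, a peroxisomal carrier of coenzyme A, FAD and NAD, rose by 0.32 ± 0.13 (adjusted p = 0.0346), a call lost without preadipocyte replicate 4 or 6, or any 1 regular_diff library, and also with library size alone as the scaling and with all libraries thinned to the smallest total (adjusted p 0.055 to 0.333). Without preadipocyte replicate 4 its log2 fold change was 0.21, and without preadipocyte replicate 5 it was called in KO_CM against preadipocyte. Slc25a32, linked to folate and FAD, and Slc25a36, a pyrimidine nucleotide carrier, stayed at or under 9.17 CPM in all libraries and were called in no comparison.

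Of the iron and glutathione carriers, 2 of 3 tested rose under differentiation, where 24.8% of all genes were higher. In KO_CM 1 fell against regular_diff and 1 against WT_CM, where 17.3% and 13.9% of all genes were lower. With 3 genes these counts cannot be told from the background. Slc25a39, which imports glutathione, rose by 0.74 ± 0.10 (adjusted p = 3.08e-07) and fell by 0.45 ± 0.10 (adjusted p = 0.000715) in KO_CM against regular_diff. It was called lower in KO_CM against WT_CM only when KO_CM replicate 1 was left out, alone or with preadipocyte replicate 5. Its rise in KO_CM against preadipocyte, 0.29 ± 0.10 (adjusted p = 0.0386), was lost without preadipocyte replicate 4 or 6, or KO_CM replicate 1, and also under 3 other alternatives (adjusted p 0.0521 to 0.138). Slc25a28, mitoferrin 2, which imports iron, rose by 0.69 ± 0.17 (adjusted p = 0.00139). Its fall in KO_CM against WT_CM, 0.64 ± 0.18 (adjusted p = 0.00878), was lost without WT_CM replicate 3, or KO_CM replicate 2 (adjusted p 0.0755 to 0.0847). Slc25a40, the relative of Slc25a39, was called in no comparison, and Slc25a37, mitoferrin 1, had 1 to 14 counts per library and was not tested.

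Mtch1 and Mtch2 sit in the outer membrane, where they insert proteins, and are not known as transporters. Mtch1 fell by 0.73 ± 0.10 (adjusted p = 4.46e-07) under differentiation, and rose by 0.54 ± 0.10 (adjusted p = 8.6e-05) in KO_CM against regular_diff and by 0.39 ± 0.10 (adjusted p = 0.004) against WT_CM. It stood at 683, 783 and 666 CPM in preadipocyte, 454, 393 and 435 CPM in regular_diff, 481, 466 and 482 CPM in WT_CM and 651, 596 and 623 CPM in KO_CM. No pair of groups overlapped, and KO_CM lay between preadipocyte and WT_CM. Mtch2 stood at 24.5, 21.1 and 29.2 CPM in preadipocyte, 35.8, 32.4 and 32.5 CPM in regular_diff, 35.3, 19.6 and 31.7 CPM in WT_CM and 23.6, 16.2 and 20.5 CPM in KO_CM. WT_CM overlapped every other group. Under differentiation Mtch2 gave 0.43 ± 0.22 (adjusted p = 0.0967), and its fall in KO_CM against regular_diff, 0.77 ± 0.26 (adjusted p = 0.0211), was lost without regular_diff replicate 4, or KO_CM replicate 2 or 3, and also with DESeq2 and with all libraries thinned to the smallest total (adjusted p 0.0503 to 0.161). Without WT_CM replicate 2 it was also called lower in KO_CM against WT_CM. Slc25a45, whose substrate is not settled, stood between 4.40 and 12.5 CPM and was called in no comparison.

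The rest of the mitochondrial machinery is given for the same libraries, as a description, and its counts are to be read beside the shares of all genes given above for each comparison. Of 79 tested subunits of the respiratory chain and ATP synthase, 73 rose under differentiation, with a median log2 fold change of 1.22. The calls were 38 lower in WT_CM against regular_diff (median -0.37), 72 lower in KO_CM against regular_diff (-0.95), 57 lower against WT_CM (-0.60) and 27 higher and 1 lower against preadipocyte (0.27). Of 65 tested mitochondrial ribosomal proteins, 47 rose under differentiation (median 0.73). In the same order their other calls were 7 lower, 45 lower, 37 lower and 5 higher. The medians of both lists had the same sign as that of the carriers in all 5 comparisons. Scaling by library size alone turned the median of the ribosomal list in KO_CM against preadipocyte to -0.03.

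Most enzymes on either side of the citrate and malate carriers rose as well. Of 9 tested, 7 rose and 2 fell under differentiation, where 24.8% of all genes were higher and 26.4% lower. In KO_CM 7 fell and 1 rose against regular_diff, where 17.3% of all genes were lower and 17.2% higher. The 2 that fell and the 1 that rose are thus no more than the background. Pyruvate carboxylase (Pcx), which refills the matrix pool of oxaloacetate, rose by 4.75 ± 0.14 (adjusted p = 2.64e-20) under differentiation, and its log2 fold change in KO_CM against regular_diff was -1.75 ± 0.12 (adjusted p = 5.63e-12). Cytosolic malate dehydrogenase (Mdh1) gave 2.83 ± 0.17 (adjusted p = 3.32e-10) and -1.85 ± 0.16 (adjusted p = 1.11e-07). Malic enzyme (Me1), which makes NADPH for fat synthesis, gave 2.22 ± 0.13 (adjusted p = 3.54e-14) and -1.5 ± 0.14 (adjusted p = 5.74e-10). In WT_CM 6 of the 9 fell, where 4.18% of all genes were lower, and Pcx gave -0.70 ± 0.12 (adjusted p = 0.000134).

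In the carnitine shuttle, which works with Slc25a20, the members moved in different directions. Acsl1, which activates fatty acids, gave 6.54 ± 0.42 (adjusted p = 1.4e-06) under differentiation and -2.03 ± 0.33 (adjusted p = 0.00126) in KO_CM against regular_diff. Cpt2, on the matrix side, gave 2.22 ± 0.17 (adjusted p = 4.92e-10) and -1.49 ± 0.17 (adjusted p = 6.4e-07). Cpt1a, the rate-limiting step on the outer membrane, ran the opposite way, with -1.61 ± 0.16 (adjusted p = 1.05e-09) and 1.84 ± 0.17 (adjusted p = 5.33e-10). It was also higher in KO_CM than in WT_CM, by 0.91 ± 0.15 (adjusted p = 2.51e-05). Of the 5 tested, 4 rose and 1 fell under differentiation, where 24.8% of all genes were higher and 26.4% lower. In KO_CM against regular_diff 4 fell and 1 rose, where 17.3% of all genes were lower and 17.2% higher. With 5 genes, the count of 1 going the other way cannot be told from the background.

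Among 16 tested transporters of other families, 9 rose and 5 fell under differentiation, where 24.8% of all genes were higher and 26.4% lower, so the share that fell is close to the background. The pyruvate carrier subunit Mpc2 gave 1.86 ± 0.10 (adjusted p = 6.43e-15) under differentiation and -1.36 ± 0.10 (adjusted p = 1.73e-11) in KO_CM against regular_diff. The serine transporter Sfxn1 gave 2.33 ± 0.14 (adjusted p = 3.85e-14) and -1.35 ± 0.14 (adjusted p = 6.99e-09), while its relative Sfxn3 gave -1.48 ± 0.13 (adjusted p = 1.69e-10) and 1.64 ± 0.14 (adjusted p = 1.59e-10). In KO_CM 8 of the 16 fell and 2 rose against regular_diff, beside 17.3% of all genes lower and 17.2% higher. Of the 16 tested parts of the TOM and TIM22 import route, 11 rose under differentiation. In KO_CM 10 fell against regular_diff and 5 against WT_CM, where 13.9% of all genes were lower. Tomm40, the import pore, gave 1.29 ± 0.13 (adjusted p = 3.05e-09) under differentiation and -0.87 ± 0.14 (adjusted p = 1e-05) in KO_CM against regular_diff.

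Of 9 listed brown fat genes 3 were tested. Cox8b, a cytochrome oxidase subunit of muscle and brown fat, had 3 counts over the preadipocyte libraries and 345 over regular_diff, which was 126 times preadipocyte (95% counting interval 42.8 to 615). Against regular_diff it fell by 1.81 ± 0.20 on the log2 scale (adjusted p = 2.74e-07) in WT_CM and by 4.34 ± 0.34 (adjusted p = 3.37e-11) in KO_CM. Cox7a1 gave 5.62 ± 0.36 (adjusted p = 1.78e-10) and -2.52 ± 0.29 (adjusted p = 1.07e-06) under differentiation and in KO_CM against regular_diff. The third, Pdk4, a kinase that shuts down pyruvate dehydrogenase, went the other way in KO_CM. It gave 0.48 ± 0.24 (adjusted p = 0.101) under differentiation, and rose in KO_CM by 0.79 ± 0.24 (adjusted p = 0.0103) against regular_diff and by 0.87 ± 0.24 (adjusted p = 0.00614) against WT_CM. Both calls were lost without KO_CM replicate 1 (adjusted p 0.0674 to 0.0969). Of 9 tested genes of mitochondrial iron and haem use, 6 rose under differentiation, where 24.8% of all genes were higher. In KO_CM 4 fell against regular_diff, where 17.3% of all genes were lower. Alas1, the entry enzyme of haem synthesis, gave 2.20 ± 0.12 (adjusted p = 6.43e-15) and -1.13 ± 0.12 (adjusted p = 1.18e-08).

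Besides Slc25a5 and Slc25a20, the counts of Slc25a36, Slc25a37, Mtch2 and Slc25a40 are uncertain, since 28.1%, 18.5%, 10.4% and 10.4% of their 3′ stretches occur in other genes. All other members shared at most 10% of these stretches.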

How the data were processed

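Total RNA of 3T3-L1 cells, 30 ng per sample, was barcoded at reverse transcription, pooled and sequenced by MARS-seq, per the labels' protocols. The authors deposited 1 table of UMI counts for 11035 genes, not normalized. Cutadapt, HTSeq, DESeq2 and the build mm10 are named, per the submitters' processing notes; versions, annotation and strand setting were not stated there. Other columns of the table were not used.

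Sample titles gave the groups and replicate numbers. The counts were fitted with edgeR (version 4.0.16; R 4.3.3) after TMM scaling and filterByExpr, using 1 robust quasi-likelihood model with a mean for each of the 4 groups and all 12 libraries. Two-sided p-values were adjusted by the Benjamini-Hochberg method across the 9519 genes that passed the filter (1516 did not), and genes under 0.05 were called. A common biological coefficient of variation of 0.126 was estimated. Depth ran from 669007 to 2025317 counts, which limits precision for members with few counts. Pairs of libraries of 1 group differed by more than counting noise (chi-square per degree of freedom 1.95 to 6.60), so no library was a second copy of another; this does not show that they came from separate cultures. Ratios against groups with 1 to 3 counts carry 95% exact intervals, and groups at 0 were set to a floor of 3 counts over the group.

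The family members, the companion lists and the tests were chosen with earlier results of these data known. Values by library are given for a fixed set of members (Slc25a1, Slc25a3, Slc25a4, Slc25a5, Slc25a10, Slc25a11, Slc25a12, Slc25a13, Slc25a20, Ucp2 and Mtch2) and for up to 6 members per comparison with the largest called change and a mean of at least 20 CPM in a group compared. Up to 4 called genes per companion list and comparison may be named, again by size of change. The lists of respiratory chain subunits and mitochondrial ribosomal proteins, the library values of Mtch1 and the counts of Ucp3 were added after values had been seen. In the family, 1 member is not reported here by name or drawn; counts and medians over the family include it.

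Gene coordinates come from GENCODE vM21 on mm10, and promoters from RefSeq on GRCm38.p6. To find shared 3′ ends, stretches of 31 bases were read at steps of 10 along the last 500 bases of each member's transcripts and looked up in all other genes; members with over 10% shared are called uncertain. The alternatives tried were DESeq2 (version 1.42.0), scaling by library size alone or by relative log expression, no filter or at least 10 counts in 3 libraries, a fit of the 6 libraries compared, a fit that was not robust, thinned counts, the replicate number as a block, and the removal of each library in turn.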

Additional observations from a re-analysis of the deposited data

How the results depend on the processing

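Over 98 pairs of a member and a comparison that were called in the main analysis or in some alternative, 1913 of 2088 alternative values kept their direction and their side of the threshold, 151 lost and 24 gained a call, and 0 changed sign while called; the other 82 pairs were never called. The count of members called ranged from 24 to 29 (24 to 30 with 1 library left out) in regular_diff against preadipocyte, 18 to 22 (16 to 22) in KO_CM against regular_diff, and 13 to 17 (13 to 16) in KO_CM against WT_CM. In WT_CM against regular_diff the count of 7 became 4 with DESeq2, 11 with only the 6 libraries compared, 11 without preadipocyte replicate 5 and KO_CM replicate 1 together and 2 after thinning, and ran from 1 to 8 with 1 library left out; the cause was not tested. In KO_CM against preadipocyte the count of 12 became 6 with only the 6 libraries compared, where 29 members were tested, and ran from 10 to 12 with 1 library left out. Scaling by library size alone moved the median of all genes in regular_diff against preadipocyte from -0.06 to -0.22, and 21 members were then higher and 4 lower. Deviations of same-numbered libraries correlated at -0.01, 0.12 and 0.07 between preadipocyte and regular_diff. Libraries of unlike number there ran from -0.109 to 0.0833. Between WT_CM and KO_CM the values were -0.04, 0.04 and -0.05, beside -0.0419 to 0.0774 for unlike numbers. No clear pairing by number was seen, but deviations from the mean of 3 libraries cannot exclude it. With the replicate number as a block, 27 members were called in regular_diff against preadipocyte and 15 in KO_CM against WT_CM. At these depths, members with few counts, such as Ucp3 and Slc25a34 in KO_CM, carry wide errors.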

Other observations

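Other transporters of mitochondria gave values that the comparisons above leave out. Mcub, a subunit that dampens calcium uptake through the uniporter, stood at 1.93 ± 0.62 CPM in regular_diff, 9.55 ± 2.72 in WT_CM and 2.75 ± 0.16 in KO_CM (SD, n = 3), on 9, 51 and 7 counts. It rose in WT_CM against regular_diff by 2.26 ± 0.47 on the log2 scale (SE; edgeR adjusted p = 0.00139). Its fall in KO_CM against WT_CM, 1.76 ± 0.52 (edgeR adjusted p = 0.0114), was lost without WT_CM replicate 3, without KO_CM replicate 2 and with DESeq2, at an adjusted p of 0.0514 to 0.0647. Sfxn5, a sideroflexin, rose in KO_CM against preadipocyte by 1.70 ± 0.36 (edgeR adjusted p = 0.000746), with KO_CM at 21.6 ± 5.59 CPM and preadipocyte at 6.44 ± 2.68 CPM.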
